A study of Mus musculus with 36 samples.

Results

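RNA assembled wholly inside introns of protein-coding genes was described in mouse palate. In each deposited table, a locus is a stretch of the genome that the assembler rebuilt from the reads of that library alone, and its FPKM is the number of fragments per kilobase of transcript scaled to the number of mapped fragments. A locus was taken as intronic where it lay within the span of a protein-coding gene of the GENCODE vM1 annotation (mm9), overlapped no annotated exon and had an FPKM of at least 1. Overlapping intronic loci of all 36 libraries were merged into 7340 regions, and the 1241 regions found in both lanes of at least 2 animals are the members described here. Both the FPKM of at least 1 and the finding in 2 animals were read from these same libraries, so the recurrence of the members is a description and was not tested. Of the other regions, 1004 were found in both lanes of exactly 1 animal and 5095 in both lanes of none.

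The libraries came from palatal shelves of C57BL/6 embryos of the genotypes TGFβ3-/-, TGFβ3+/- and WT, taken on embryonic day 14.5 (E14.5) or on day 15.5 or 16.5. Each of the 9 groups held 2 animals, each sequenced in 2 lanes, which makes 18 animals. The mutant embryos came from crosses of heterozygous parents and carry the allele in all cells, and the sources used here do not say which exons it changes. Ages were sequenced in separate lanes, so age and lane cannot be told apart. All genotypes of the same age were run side by side. Of the 4 TGFβ3+/- libraries titled E15.5, 3 name day 14.5 in a further label, and the title was followed. The exonic FPKM of Tgfb3 did not fall in TGFβ3-/- (38.3 ± 5.5 FPKM against 32.2 ± 2.9 in WT, SD, n = 6 each), so this gene-level value does not check the genotypes, which are used as labelled. The E15.5 WT replicate 2 libraries stood apart, with 18695 and 18956 loci, nearly all at an FPKM of at least 1, against up to 30380 in other libraries. Their part in a result was not tested beyond the values without that animal given below. Markers of palatal mesenchyme were present, with 22 of the 23 measured at an FPKM of at least 1 in all 18 animals. Whole palate shelves hold several cell types, and fewer cells of a type and less RNA per cell cannot be told apart.

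Introns are removed from a transcript during splicing and are mostly degraded in the nucleus. RNA that stays in an intron of a poly(A)-selected library can come from a retained intron, from a transcript that ends at a poly(A) site inside the intron, from a separate gene nested there, or from a processed copy of another gene that shares its reads. The protocol selected poly(A) RNA with oligo-dT beads and kept no strand, so reads of a host gene and of a transcript antisense to it cannot be told apart.

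The sequences below show what the Tgfb3 member and the members with the highest levels are made of, read from mm9 on the plus strand, as up to 300 bases around the centre of the region. The Tgfb3 stretch is chr12:87399389-87399688, and Tgfb3 is on the minus strand. In the other sequences capitals mark bases aligned at 90% identity or more to an annotated transcript of another gene or, for Itga9 and Atf2, to each other.

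Tgfb3: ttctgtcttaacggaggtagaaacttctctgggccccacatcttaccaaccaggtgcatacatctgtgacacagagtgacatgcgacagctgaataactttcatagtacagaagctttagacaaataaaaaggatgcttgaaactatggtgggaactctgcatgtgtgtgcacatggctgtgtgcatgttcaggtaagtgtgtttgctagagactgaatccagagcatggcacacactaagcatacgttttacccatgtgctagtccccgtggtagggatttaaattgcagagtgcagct
Pdss2: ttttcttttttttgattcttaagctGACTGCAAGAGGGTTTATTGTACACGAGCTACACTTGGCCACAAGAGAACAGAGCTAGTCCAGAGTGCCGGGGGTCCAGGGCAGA
Itga9: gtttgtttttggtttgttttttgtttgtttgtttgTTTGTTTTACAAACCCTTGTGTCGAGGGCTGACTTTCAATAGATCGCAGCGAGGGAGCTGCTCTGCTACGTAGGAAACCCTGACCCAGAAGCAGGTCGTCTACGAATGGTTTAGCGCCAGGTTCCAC
Atf2: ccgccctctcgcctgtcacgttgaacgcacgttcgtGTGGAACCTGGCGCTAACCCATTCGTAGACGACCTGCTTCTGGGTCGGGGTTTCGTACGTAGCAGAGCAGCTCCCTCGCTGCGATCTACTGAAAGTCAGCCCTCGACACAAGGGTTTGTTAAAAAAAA
Gphn: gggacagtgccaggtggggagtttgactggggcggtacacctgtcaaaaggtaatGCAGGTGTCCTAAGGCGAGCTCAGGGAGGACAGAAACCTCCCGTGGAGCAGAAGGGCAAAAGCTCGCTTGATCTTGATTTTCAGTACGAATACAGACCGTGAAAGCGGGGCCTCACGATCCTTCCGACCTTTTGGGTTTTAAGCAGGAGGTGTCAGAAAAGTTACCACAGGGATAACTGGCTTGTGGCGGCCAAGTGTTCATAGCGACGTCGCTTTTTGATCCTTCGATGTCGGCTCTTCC
Jarid2: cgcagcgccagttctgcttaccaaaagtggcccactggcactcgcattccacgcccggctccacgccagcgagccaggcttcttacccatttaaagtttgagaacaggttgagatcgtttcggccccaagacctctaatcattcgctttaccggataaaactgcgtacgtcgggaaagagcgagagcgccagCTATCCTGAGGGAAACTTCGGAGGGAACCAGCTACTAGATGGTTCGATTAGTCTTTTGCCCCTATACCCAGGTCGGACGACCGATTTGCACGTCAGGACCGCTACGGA
Filip1l: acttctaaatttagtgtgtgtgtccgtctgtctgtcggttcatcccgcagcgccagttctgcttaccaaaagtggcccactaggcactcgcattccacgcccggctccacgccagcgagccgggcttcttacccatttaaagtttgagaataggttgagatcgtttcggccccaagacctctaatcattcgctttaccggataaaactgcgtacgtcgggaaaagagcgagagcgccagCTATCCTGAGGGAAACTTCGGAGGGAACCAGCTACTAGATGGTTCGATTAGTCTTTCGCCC
Ube2e2: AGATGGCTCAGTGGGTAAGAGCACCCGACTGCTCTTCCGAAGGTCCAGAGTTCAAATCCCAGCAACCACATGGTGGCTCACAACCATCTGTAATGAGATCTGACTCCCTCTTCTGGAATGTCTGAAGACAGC

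The Pdss2 stretch is chr10:43175939-43176048, and 77.3% of its bases matched a transcript of Gm10076 at 100% identity. The Itga9 stretch (chr9:118584028-118584189) and the Atf2 stretch (chr2:73705935-73706098) aligned to each other on opposite strands over 128 bases at 95.3% identity, and neither matched an annotated transcript of another gene. The Gphn stretch (chr12:79451862-79452157) matched a transcript of Lars2, the mitochondrial leucyl-tRNA synthetase, over 81.4% of its bases. The Jarid2 stretch (chr13:44965018-44965317) and the Filip1l stretch (chr16:57391192-57391491) were cut from regions that aligned to each other over 389 bases at 98.5% identity, and the part in capitals is shared with the pseudogene Gm15662. The Ube2e2 stretch (chr14:19420499-19420630) matched a transcript of Dnajb14 over its whole length at 96.6% identity. Only annotated transcripts were searched, and the repeated ribosomal RNA genes are not among them. A match of any of these stretches to ribosomal RNA was therefore not tested, and a match to a transcript does not by itself name the source of the reads.

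The members were 110 to 39748 bases wide (median 1459), and the other merged regions had a median of 520 bases. The median distance of the members to the nearest exon was 105 bases against 279 for the other regions, and 499 members (40.2%) were at least 200 bases from any exon against 57.2% of the others. A region spans all its merged loci and takes the distance of the locus nearest to an exon. Merging more loci can only widen a region and bring it nearer to an exon. The contrasts in width and distance thus follow in part from the rule that members recur. The median intron that held a member was 3951 bases long against 3074 for the other regions. Of the 1203 members with a single host gene, 18.4% lay in the first intron and 15.4% in the last, where members spread evenly over the introns of their hosts would give 11.2% for either. The other regions gave 15.6% and 16.0%, with 12.5% for an even spread, so an excess in the first and last introns was not particular to the members. Median GC content was 45.3% in the members and 45.9% over all merged regions. The poly(A) signal AATAAA, searched on the strand of the host in the 300 bases at the centre of the region, was in 14.1% of members and 12.6% of all 7033 merged regions with 1 host. A run of 12 T in the same window was in 2.58% of members and 1.52% of all such regions, and a run of 12 A in 1.16% and 1.01%.

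Most members were found in few animals. Of the 1241, 380 were found in both lanes of exactly 2 animals and 203 of exactly 3. At the other end, 28 members were found in both lanes of all 18 animals. These 28 lay deep in long introns, with a median distance of 4230 bases to the nearest exon and a median intron of 32929 bases, and 23 of the 28 were at least 200 bases from any exon. The plot of members by the number of animals shows the fall.

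**Figure D1:**
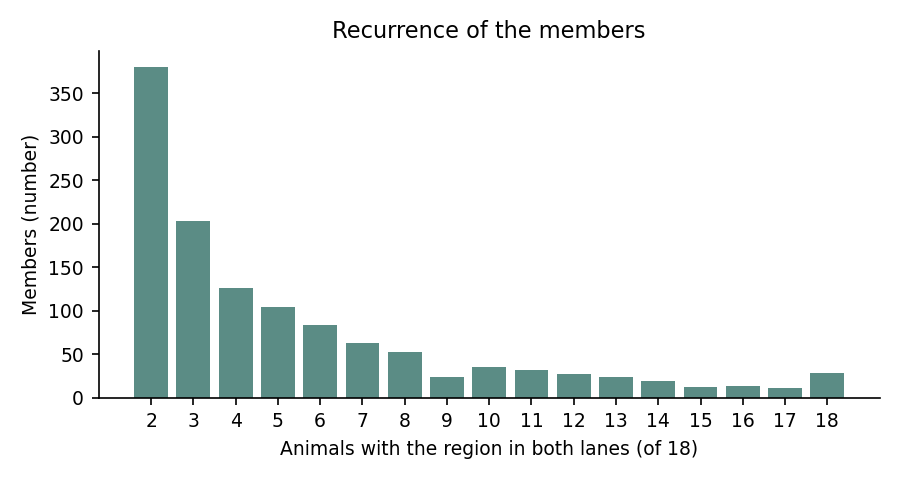
Number of members (vertical axis) by the number of the 18 animals in which the region was found in both lanes (horizontal axis). The bars fall from 380 members found in 2 animals to 11 found in 17 and stand at 28 for all 18.

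A region without an intronic locus is often inside a longer locus instead. Over all members and libraries, 47.7% of the pairs had an intronic locus, and 48.9% were covered only by a locus that also reached exons, whose FPKM says nothing of the intron. Such animals were given no value for that member, and 0 was used only where no locus covered the region. As a result, 148 members had a value in all 18 animals, and the median member had a value in 12.

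The median level of a member was 1.07 FPKM, with quartiles of 0.669 and 2.00. Narrow regions had the higher levels. The 30 members under 300 bases had a median of 31.7 FPKM, and the 234 members of 3000 bases or more had a median of 0.714. Cufflinks divides by an effective length that is short for loci near the size of a fragment, and its part in these levels was not tested. Against the exons of its own host, the median member stood at 0.108 of the host's FPKM, and 72 of 1130 members (6.37%) were above it. Regions that match transcripts of other genes held part of the high levels. In 60 members (4.83%) at least 50% of the bases matched a transcript of another gene at 90% identity or more, 42 of them a protein-coding gene and 13 a pseudogene. Their median was 5.53 FPKM against 1.05 for the other 1181. Of the 17 members at 100 FPKM or more, 8 were such matches, and reads can be shared between near-identical copies, so the level of such a member is uncertain. The other 9 included the regions in Itga9, Atf2, Jarid2, Filip1l and Camk1d. Each of these shared sequence with another member, so their levels are uncertain too.

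The highest median level, over the 7 animals with a value, was in Pdss2, which encodes a subunit of the enzyme that makes the coenzyme Q side chain. Its region ran from 14788 to 35819 FPKM, beside a host gene at a median of 3.19 FPKM. The region in Itga9, an integrin alpha subunit, was found in both lanes of all 18 animals. At E14.5 its lowest, median and highest levels were 15577, 17587 and 37311 FPKM. The same were 10415, 20342 and 35130 a day later and 4397, 10191 and 22103 by E16.5, so the ages overlapped. The exons of Itga9 had a median of 9.86 FPKM. The region in Atf2, a transcription factor, which shares sequence with that in Itga9, ran from 369 to 942 FPKM over the 14 animals with a value. The ubiquitin-conjugating enzyme gene Ube2e2 held a region with a value in 6 animals, from 399 to 4440 FPKM.

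The other 6 of the 10 highest members were the regions in Jarid2, Filip1l, Gphn, 1700007G11Rik, Camk1d and Brdt. Jarid2 encodes a part of Polycomb repressive complex 2, and its region had a lowest, median and highest level of 359, 2124 and 2566 FPKM at E14.5. For E15.5 these were 409, 2621 and 2969, and for E16.5 they were 368, 431 and 677. At E14.5 and E15.5 a few animals were as low as those of E16.5 and the rest several times higher, so the ages overlapped, and E16.5 was called lower than E14.5 by -1.53 (log2, SE 0.54, limma adjusted p = 0.0397) and lower than E15.5 by -1.97 (SE 0.54, adjusted p = 0.0427). The region in Gphn, which encodes gephyrin, a scaffold of inhibitory synapses, ran from 624 to 1640 FPKM over the 18 animals, and the partner of the Jarid2 region in Filip1l ran from 576 to 1546. The Camk1d region, in a calcium and calmodulin-dependent kinase gene, ran from 154 to 429 FPKM and matched no annotated transcript. The region in 1700007G11Rik matched Eef1a1, a translation elongation factor, over 98.0% of its bases and ran from 134 to 593 FPKM. The Brdt region, 66.0% of which matched Hmgb1, a chromatin protein, had a median of 277 FPKM in 13 animals.

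Shared sequence went further than these pairs. Of the 1241 members, 83 shared sequence with at least 1 other member. They formed 14 families, the largest of 50 members with the Ube2e2 region among them. The shared part need not cover most of both regions. The Jarid2 region of 459 bases and the Filip1l region of 1100 bases, which form a family, aligned over 389 bases. Whether all members of a family share the same stretch was not tested. Whether a repeat found at many places of the genome joins the largest family was not tested either. Host genes with many members were few, since 726 genes held exactly 1 member and 137 held 2. Gm20388 held 16 members, Pcdhgc5 held 8, and Wiz and Zfp467 held 6 each. Lphn1 and Mbnl1 held 5 each. The members in Wiz, a zinc finger gene, had medians from 4.94 to 134.9 FPKM, and those in Mbnl1, a splicing regulator, from 0 to 6.75. The 876 single host genes with a level, taken with no lower limit on it, had a median exonic level of 9.42 FPKM and a median span of 41028 bases. The other 12645 protein-coding genes, which had to reach 1 FPKM in 2 animals, had medians of 8.68 FPKM and 22632 bases. The 2 sets were filtered unlike, so their medians are not a like comparison.

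Tgfb3, the targeted gene and a ligand needed for the fusion of the palatal shelves, held 1 member, chr12:87399310-87399769. It is 460 bases wide and lies in intron 6 of 6, 80 bases after exon 6 and 421 bases before exon 7. The intron is 961 bases long. The member was found in both lanes of E15.5 TGFβ3-/- replicate 2 and of both E16.5 TGFβ3-/- animals, and in 1 lane of E15.5 TGFβ3-/- replicate 1. Its levels in these 4 animals were 5.17 FPKM in E15.5 replicate 2, 4.38 and 5.68 FPKM in the E16.5 replicates 1 and 2, and 3.42 FPKM in the single lane of E15.5 replicate 1. The other 14 animals had no intronic locus there, and a longer locus covered the region in each. These 14 are the 2 TGFβ3-/- animals of E14.5 and all 12 TGFβ3+/- and WT animals. The rule needs 2 animals in both lanes, so that the detection of this member in TGFβ3-/- alone is a description. Of the 4 animals, both of E15.5 and E16.5 replicate 1 had the most members found in both lanes of any animal (503, 505 and 567). E16.5 replicate 2 had 314, within the WT range of 196 to 404. Whether the Tgfb3 member goes with a wider detection of intronic loci in these libraries was not tested.

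The next regions of Tgfb3 were just outside the rule. A region of 603 bases in intron 5, chr12:87400200-87400802, was found in 4 TGFβ3-/- libraries, 6 TGFβ3+/- libraries and 0 WT libraries, but in both lanes of only 1 animal, a TGFβ3+/- one. Its loci ran from 4.68 to 14.4 FPKM, and it ends 196 bases before exon 6. A region of 359 bases in the same intron, chr12:87401760-87402118, was found in 4 TGFβ3-/- libraries and in both lanes of 1 animal, at 7.43 to 26.1 FPKM. The remaining regions, 1 in each of the introns 5 and 6, were found in 1 TGFβ3-/- library each. The Cufflinks 95% intervals of the member's 7 loci all overlapped one another, as the plot of Tgfb3 loci shows.

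**Figure D2:**
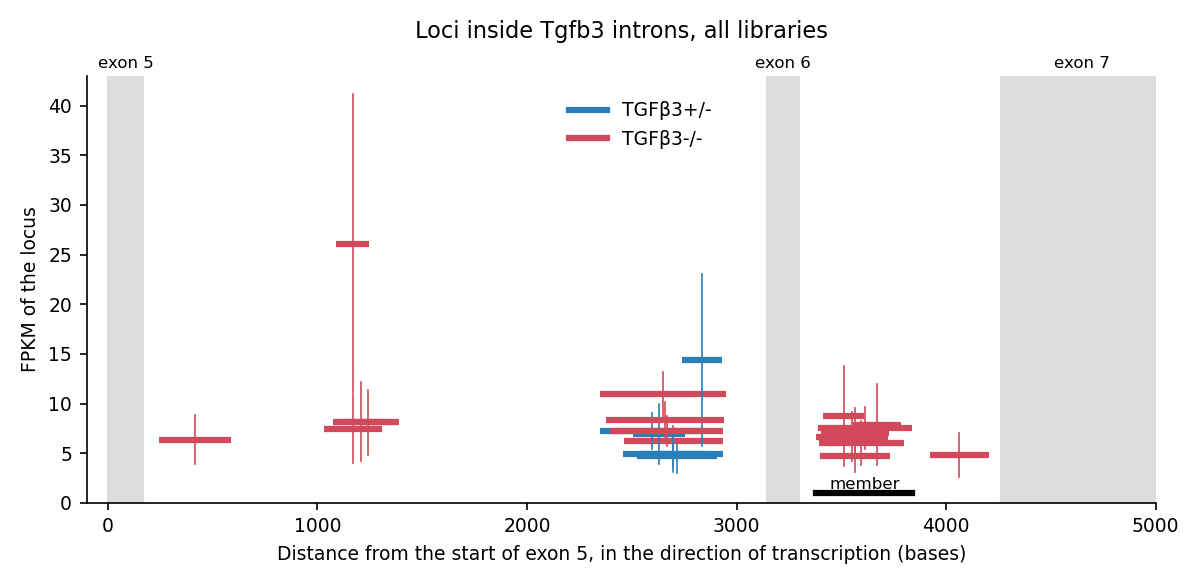
Loci wholly inside introns of Tgfb3 in all 36 libraries. Horizontal bars span each locus by its distance from the start of exon 5 in bases, at the height of its FPKM, vertical lines are the 95% intervals of Cufflinks, grey bands are exons and the black bar is the member. The member's 7 loci are all of TGFβ3-/- libraries and lie between 4.73 and 8.75 FPKM, and no WT library has a locus.

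With no value where a longer locus covered the region, the Tgfb3 member could not be tested, since only TGFβ3-/- animals had one. With 0 in place of each missing value, the mean over the ages was higher in TGFβ3-/- than in WT and TGFβ3+/- by 1.54 on the log2(FPKM + 1) scale, and by 1.34 to 1.74 when each animal was left out in turn. The region is a member only through TGFβ3-/- animals, and every value outside them is a filled-in 0, so this difference was fixed by the rule and no test is given for it. The 1 feature called in that setting in either comparison was this region (0.00705% of 14176 and 0.0071% of 14094), and nothing is read from that count. A 0 here stands for the lack of a separate locus, not of reads, since the longer locus may hold reads of the intron.

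Levels were compared between genotypes as the mean over the 3 ages. Of the members with enough values, 549 could be tested for TGFβ3-/- against WT, 529 for TGFβ3+/- against WT and 583 for TGFβ3-/- against TGFβ3+/-. By limma, 0 members were called in each of the 3 comparisons, with 48, 24 and 66 members at an unadjusted p under 0.05. Over all genes and members tested, 0%, 0.00746% and 0% were called in these comparisons. The median change of the members was 0.11 on the log2 scale for TGFβ3-/- against WT, with -0.02 over the genes. Against the exons of their host genes, 0 members (0%) were called for TGFβ3-/- against WT, with 26 at an unadjusted p under 0.05. Among the members named here by the fixed rules, the Rnf157 region had the largest difference between TGFβ3-/- and WT, 1.12 ± 0.39 (SE), with a limma adjusted p of 0.828. The calls that appeared without 1 animal were those of the regions in Flt3, a cytokine receptor of blood progenitors, and BC048502, which were chosen after their values were seen. The Flt3 region was called against WT without E15.5 WT replicate 1, by 2.68 in TGFβ3-/- and 2.59 in TGFβ3+/- on the log2 scale (SE 0.21, limma adjusted p = 0.000854 and 0.00120). The BC048502 region, all of which matches Marcksl1, was called against WT in TGFβ3-/- without E16.5 TGFβ3-/- replicate 1 (1.65, limma adjusted p = 0.000561), and in TGFβ3+/- without either E16.5 TGFβ3-/- animal (1.06, adjusted p = 0.00597 and 0.00657). Against the host exons, 5 members were called for TGFβ3-/- against WT without at least 1 animal, those in Flt3, BC048502, March3, Copg2 and Slco1a6, also named after their values were seen.

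Detection counts differed more widely between animals. A member was counted as detected where it had an FPKM of at least 1 in both lanes. The number detected per animal ran from 196 to 404 in WT (median 338.5), from 330 to 434 in TGFβ3+/- (median 338.5) and from 314 to 567 in TGFβ3-/- (median 447.5). The lowest was E15.5 WT replicate 2 with 196, the highest was E16.5 TGFβ3-/- replicate 1 with 567, and both E15.5 TGFβ3-/- animals had over 500 (503 and 505). Of the 1241 members, 652 were detected in more TGFβ3-/- than WT animals, 280 in fewer and 309 in equally many. By Fisher's exact test (two-sided, 6 against 6 animals), 0 members differed at an adjusted p under 0.05 in each genotype comparison, 0% of those tested for TGFβ3-/- and for TGFβ3+/- against WT. The smallest p that 6 against 6 animals allow in this test is 0.00216, before adjustment over 1241 members. The test also uses the same detection that chose the members. A call was thus hardly possible, and nothing is read from the count of 0. At an unadjusted p under 0.05 there were 0 for TGFβ3-/- against WT, 1 for TGFβ3+/- against WT and 4 for TGFβ3-/- against TGFβ3+/-. No member was detected in all animals of one genotype and in none of another. The regions in Rbbp5, Zc3h7a, Paxip1 and Fam122b were each detected in 5 TGFβ3-/- and 0 TGFβ3+/- animals, and the Tmem18 region in 0 TGFβ3+/- and 5 WT animals, named after their values were seen (exact p = 0.0152, adjusted p = 1 each).

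The share of all assembled loci that lay inside introns was tested apart from the choice of the members. Among loci with an FPKM of at least 1 it was 5.41 ± 1.36% in WT, 5.69 ± 0.70% in TGFβ3+/- and 7.62 ± 2.09% in TGFβ3-/- (SD, n = 6 animals each). The difference between TGFβ3-/- and WT was 2.22 percentage points (exact permutation test, two-sided, p = 0.0563, adjusted p = 0.188 over 6 comparisons), and that between TGFβ3-/- and TGFβ3+/- was 1.93 (exact permutation p = 0.0628, adjusted p = 0.188). Neither passed the threshold. Within ages, TGFβ3-/- stood below WT at E14.5 by a difference of -0.0775 points and above it by 3.52 and 3.21 at the later ages. TGFβ3+/- differed from WT by 0.287 points (exact permutation p = 0.665). The E15.5 WT mean rests on 6.83% and 3.31% in its 2 animals, and the E16.5 TGFβ3-/- mean on 10.8% and 5.19%, so the animals of each of these groups differed by more than the genotype means did. The ages did not differ past the threshold, with means of 6.00 ± 0.53%, 6.66 ± 2.00% and 6.06 ± 2.37% from the youngest to the oldest (SD, n = 6 each, exact permutation p = 0.444 to 0.991). Without E16.5 TGFβ3-/- replicate 1 the difference between TGFβ3-/- and WT was 1.58 points and that between E16.5 and E14.5 changed sign, from 0.0656 to -0.889. Without E15.5 WT replicate 2 the difference between TGFβ3+/- and WT became -0.132.

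**Figure D3:**
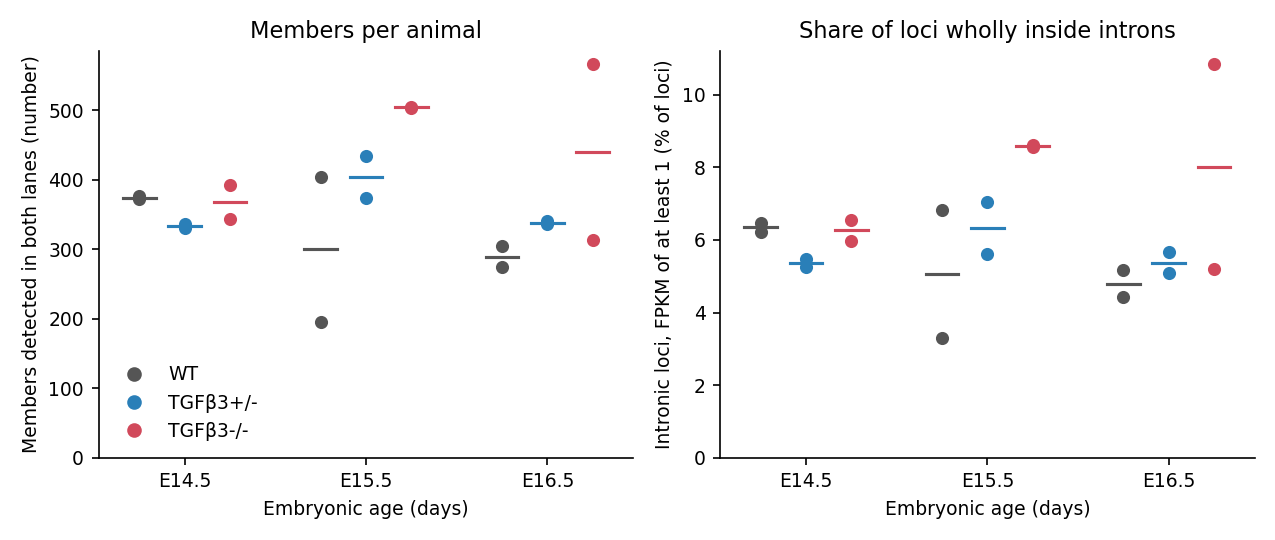
Members detected in both lanes (left, number) and share of loci with an FPKM of at least 1 that lie inside introns (right, % of loci) for each animal, by age and genotype. Points are animals and lines are the means of 2. Counts run from 196 in an E15.5 WT animal to 567 in an E16.5 TGFβ3-/- animal, and shares from 3.31% to 10.8% in the same animals.

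The number of members called between ages depended on the pseudocount and the fold threshold. From E14.5 to E15.5, 599 members were tested, and 6 rose and 3 fell by limma at an adjusted p under 0.05 and a change of at least 2-fold, beside 3.4% of all genes and members called higher and 0.193% called lower. From E15.5 to E16.5, 5 of 559 rose and 4 fell (background 2.28% and 0.089%). From E14.5 to E16.5, 6 of 553 rose and 5 fell (background 8.3% and 0.578%). The share of members that rose was below the background in each comparison and the share that fell was above it, and neither difference was tested. The median change of the members from E14.5 to E16.5 was -0.0036 on the log2 scale against 0.04 over the genes. With a pseudocount of 0.1 FPKM the 9, 9 and 11 called members became 26, 22 and 54, and by adjusted p alone they became 36, 35 and 88. Of the 9, 9 and 11, 5 in each comparison met the rule only with the animals of their higher age, so the rule favoured a difference in them. No p is given for these, and values are given below for those that are named.

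The region in Klrb1f, a lectin-like receptor gene of natural killer cells, was seen at E16.5. Its levels were 0 in all 6 animals at E14.5 and 0 to 0.571 FPKM a day later (median 0.121), and reached 1.57 to 3.79 FPKM at E16.5 (median 2.19). The E16.5 animals stood apart from all the others. On the log2(FPKM + 1) scale the difference was 1.72 from E14.5 and 1.47 from E15.5 (SE 0.11 each). The region was detected in both lanes of 6 animals of E16.5 and of no other animal, so E16.5 alone made it a member. The region, chr6:128996414-128999911, lies in intron 1 of 5, and the exons of Klrb1f were at 0 to 0.196 FPKM, so at E16.5 the intron had the higher FPKM. The summed FPKM of 11 measured macrophage and leukocyte markers rose too, from 55.1 to 75.7 at E14.5 to 156 to 197 at E16.5, with 9 of them at 1 FPKM or more in all 18 animals, and its part in this result was not tested.

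The region in Gm20388 had the same course. Its levels were 0 in all 6 animals at E14.5, 0 in 5 and 0.400 FPKM in 1 at E15.5, and 1.48 to 3.85 FPKM at E16.5 (median 2.42). The difference of E16.5 was 1.78 from E14.5 and 1.70 from E15.5 (SE 0.15 each), and the region is a member only through 3 animals of E16.5. Gm20388 is a gene model with an intron of 4384420 bases that spans other genes, and the region, chr8:126042231-126042681, lies 158 bases from the nearest exon of any gene.

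Copg2 encodes a subunit of the coatomer of transport vesicles. Its region, chr6:30752812-30758925, in intron 24 of 27, had a lowest, median and highest level of 2.12, 2.49 and 3.50 FPKM at E14.5. For E15.5 these were 2.89, 5.71 and 7.17, and for E16.5 they were 7.57, 22.9 and 64.7. The 6 animals of E16.5 fell into 3 between 7.57 and 9.48 FPKM and 3 between 36.4 and 64.7, 1 of each genotype in both. E16.5 was higher than E14.5 by 2.55 on the log2 scale (SE 0.63, limma adjusted p = 0.00989). The exons of Copg2 often fell into 1 locus with another gene and had a value in 12 animals. The Ccdc21 region, of which 63.5% matches Gm17565, rose from 4.64 to 9.53 FPKM at E14.5 to 9.58 to 25.9 at E16.5 (log2 difference 1.12, adjusted p = 0.00291). The 5 animals of E16.5 with a value began only just above the highest of E14.5, and without E16.5 TGFβ3+/- replicate 1 the change fell just under 2-fold. This region was found in both lanes of only 1 animal of E16.5, against 4 of E14.5.

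Among the members with lower levels at the later age, the Rnf157 region, in a ubiquitin ligase gene, ran from 37.0 to 93.7 FPKM at E15.5 (5 animals) and from 4.50 to 21.3 at E16.5 (6 animals), with no overlap. It fell by 2.19 on the log2 scale (SE 0.34, limma adjusted p = 0.00884), while the exons of Rnf157 stayed between 11.0 and 21.9 FPKM at these ages. At E14.5 its 3 values were 6.64, 85.8 and 130.2 FPKM. Of its bases 62.5% match Gm9864. The region in Nphs1, the gene of the kidney protein nephrin, of which 64.0% matches the ribosomal protein gene Rps12, ran from 2.20 to 5.33 FPKM at E14.5 and from 0 to 1.82 at E16.5. The difference was -1.51 (SE 0.50), and the call was lost in 9 of the fits that left out 1 animal. It met the rule only with the animals of E14.5. The exons of Nphs1 were listed at 0 in all animals.

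Between E14.5 and E15.5 the region in Nupl1, a nucleoporin gene, ran from 0.364 to 1.295 FPKM at the first age and from 1.34 to 4.10 FPKM at the second (log2 difference 1.09, SE 0.22, limma adjusted p = 0.00677). Its change fell under 2-fold without E15.5 TGFβ3+/- replicate 2 (0.95), and again without E15.5 WT replicate 2 (0.94). The region in 4932425I24Rik was at 0 in 5 animals and 0.583 FPKM in 1 at E14.5 and at 0.972 to 1.65 FPKM at E15.5 (log2 difference 1.12, SE 0.15). The region in Ccdc67, a gene of centriole assembly, was at 0 in all 6 animals of E14.5 and at 0.576, 0.799 and 1.85 FPKM in the 3 animals of E15.5 with a value (log2 difference 1.00, SE 0.13), while the median of its exons went from 0 to 16.1 FPKM. The region in Hjurp, the chaperone of the centromeric histone, stood at 3.82 to 7.95 FPKM in 5 animals of E14.5 and at 0 in the 3 animals of E15.5 with a value, a difference of -2.70 (SE 0.26). Of these members, only that in Nupl1 met the rule without its higher age. They had values in 11 to 17 of the 18 animals.

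**Figure D4:**
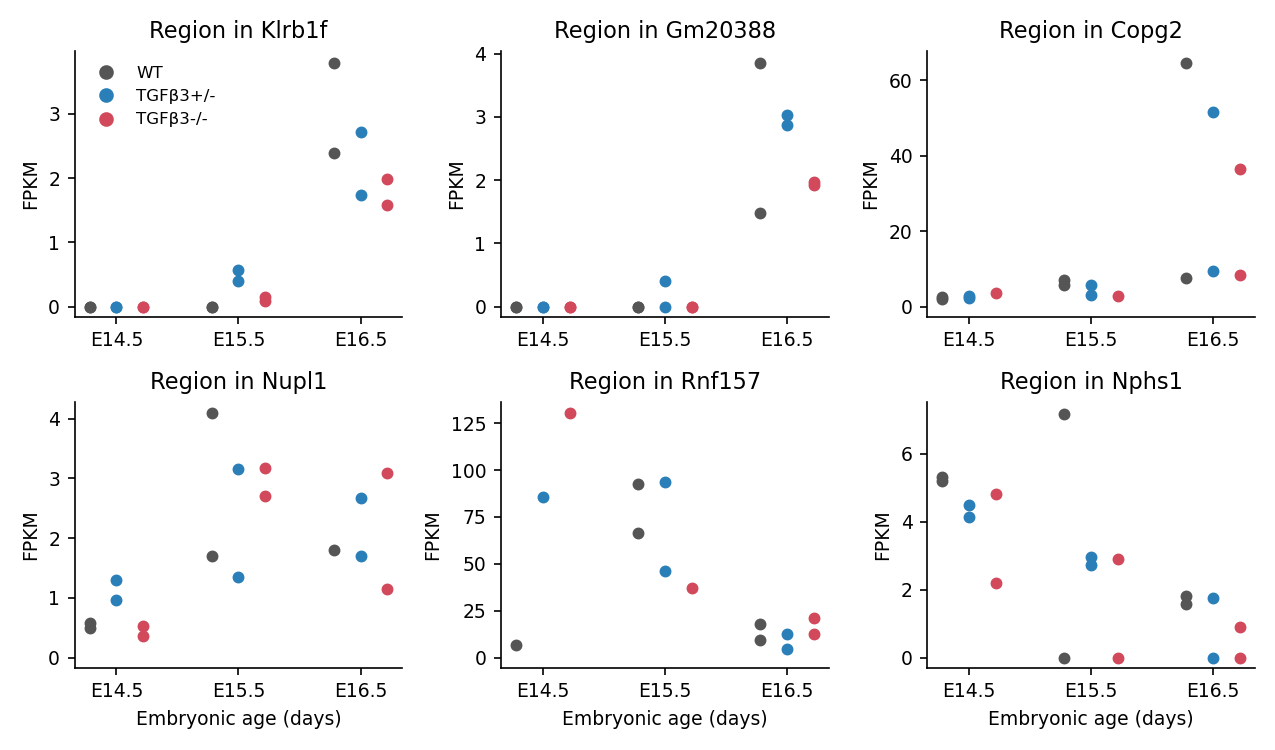
Levels (FPKM, linear axes) of 6 called members whose ages did not overlap in a comparison, for each animal with a value, by age and genotype. The Klrb1f and Gm20388 regions stand at 0 in all animals of E14.5 and at 1.48 FPKM or more in all animals of E16.5, and the Rnf157 region at or below 21.3 FPKM at E16.5.

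The change inside the intron was set against the exons of the same host gene from E14.5 to E16.5, as the log2 change of the region minus that of the exons, for 471 members with a value for both. In this comparison 14 members (2.97%) were called lower than their host and 3 (0.637%) higher. For 12 of the 14 the exons of the host rose at an adjusted p under 0.05, and for 11 of them by at least 2-fold. In Ppil6, Cdhr3, Cdc20b and Lrrc36 the region was at 0 in all animals of E14.5 and the exons had a median of 0, so the difference restates the levels of region and exons at E16.5 and is no smaller fold change. Of the 17 called, 8 met the rule only with the age at which the region was higher, and no p is given for these. Among all 449 members with a tested host, 305 (67.9%) changed in the same direction as the host, with a correlation of 0.46 across regions, which share libraries and are not replicates.

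Ppil6, a cyclophilin-like gene, rose by 3.48 on the log2 scale, its region by 0.67, a difference of -2.89 (SE 0.21). Its region was at 0 in all 6 animals of E14.5 and at 0.265 to 0.942 FPKM in 5 animals of E16.5, while the median of the exons went from 0 to 10.8 FPKM. For 6820408C15Rik the exons rose by 3.74 and the region by 0.39, from 0.789 to 0.923 FPKM at E14.5 to 1.23 to 1.60 FPKM at E16.5, a difference of -3.34 (SE 0.21, limma adjusted p = 4.24e-06). Ttc21a, a gene of transport within cilia, had a difference of -2.07 (SE 0.16, limma adjusted p = 6.34e-06), and its exons went from a median of 0.0458 to 5.43 FPKM. Cdhr3, a cadherin of ciliated airway cells, had a difference of -2.01 (SE 0.16), and its region was at 0 at E14.5 and at 0.623 to 1.16 FPKM in the 3 animals of E16.5 with a value. The remaining members lower than a host that rose were in Lrriq1, Cdc20b, 4932425I24Rik, Camk1d, Lrguk, 1700030K09Rik, Lrrc36 and Ccdc13. In 2 members, those in Rnf157 and BC048502, the region itself was called lower, with overlap between the ages. The regions in Camk1d, 1700030K09Rik and Lrriq1 changed by -0.42, -0.28 and -0.12 on the log2 scale and were not called by level. The Camk1d region shares sequence with another member, so its level may not be that of the Camk1d intron. The summed FPKM of 18 measured epithelial markers rose from 194 to 356 at E14.5 to 998.8 to 1837 at E16.5, with 15 of them at 1 FPKM or more in all animals and none at 0 throughout, and its part in these changes was not tested.

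In the opposite direction, the Klrb1f region stood 1.61 higher against its exons (SE 0.14). A region in Ptprs, a receptor tyrosine phosphatase gene, chr17:56569940-56572586, in intron 12 of 34, rose from 0.755 to 1.64 FPKM at E14.5 to 1.499 to 7.50 at E16.5, with overlap, while the exons went from a median of 98.3 to 75.7 FPKM. Its difference of 1.25 (SE 0.29, limma adjusted p = 0.0187) was no longer called without E16.5 TGFβ3-/- replicate 1 (adjusted p = 0.0577). With the highest FPKM of any locus in place of the mean over the region, it was -0.10. The region of Tcp11l1 stayed between 1.03 and 1.88 FPKM while its exons fell by 1.10 on the log2 scale (difference 1.16, adjusted p = 0.0278).

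**Figure D5:**
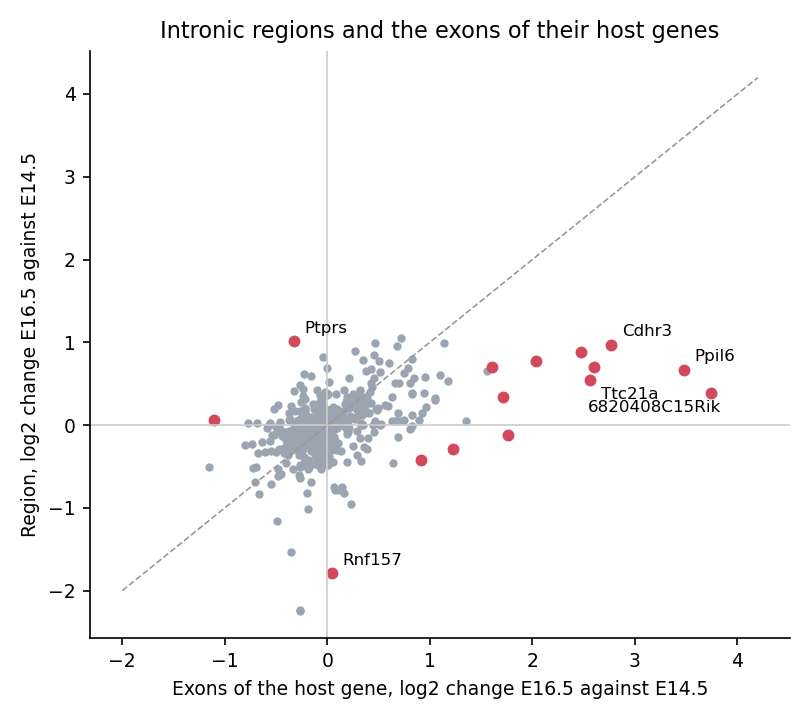
Change from E14.5 to E16.5 on the log2(FPKM + 1) scale for 449 regions (vertical axis) and for the exons of their host genes (horizontal axis). Red points are regions called against their host, the dashed line marks equal change, and most red points lie at the right, where hosts rose by 0.91 or more and regions by at most 0.97.

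Detection by age gave few members that were found in all animals of an age and in none of another. Between E16.5 and E14.5, 7 members were detected in 6 of 6 animals of E16.5 and 0 of 6 of E14.5, in Tiam1, Kif16b, Fbxl13, Ssh1, Lrguk, Klrb1f and Purg, and 2 in the opposite direction, in Spata24 and Adamts3. By Fisher's exact test 0 members (0%) were called and 27 were at an unadjusted p under 0.05, on the same detection that chose the members. The regions in Tiam1, Kif16b, Fbxl13, Ssh1, Klrb1f and Purg met the rule only with the animals of E16.5, so no p is given for these. Those in Lrguk, Spata24 and Adamts3 had the smallest p that 6 against 6 animals allow in Fisher's exact test, 0.00216, and an adjusted p of 0.298. The Tiam1 region, in an activator of the GTPase Rac (chr16:89796266-89797003), the Kif16b region, in an endosomal kinesin gene (chr2:142457737-142469617), and the Ssh1 region, in a cofilin phosphatase gene (chr5:114439857-114442283), were, like that in Klrb1f, detected in 0 of 6 animals of E15.5 as well. Between E15.5 and E14.5 the Arhgap39 region was detected in 0 and 6 animals. Part of the Adamts3 region, in a procollagen protease gene, matches Set.

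The gene lists held few members. Of 36 RNA-processing genes, a class known for retained introns, 8 held 14 members. None of their levels was called in any comparison of ages or genotypes, but only 4 of the 14 could be tested from E14.5 to E16.5. With 0 in place of missing values, regions in Luc7l (-2.28), Srsf6 (-2.23) and Srsf7 (-1.60) were called lower on the log2 scale from E14.5 to E16.5. In that setting a region in Tra2a was called higher from E14.5 to E15.5 (1.55). Such a 0 can stand for a region inside a longer locus. The region in Srsf6, a splicing factor, was called lower against its host from E15.5 to E16.5 (log2 difference -1.09, SE 0.22, limma adjusted p = 0.0190), with overlap. The highest of the 14 was a region in Luc7l (median 45.7 FPKM, host 27.4), all of which matches Pabpc1, the poly(A)-binding protein. The next was the one in intron 2 of Srsf6, at 33.2 FPKM beside 89.7 FPKM in its exons, with no match. Regions in Rbm39 reached 12.3 FPKM, in Srsf7 8.68, in Luc7l2 6.08, in Rbm25 3.41, in Tra2a 3.39 and in Clk4 1.59, and 5 of the 14 were adjacent to an exon. Of 37 TGFβ pathway genes, Tgfb3 and Tgif1, a repressor of the pathway, held 1 member each. Palatal mesenchyme genes held 3, in Prrx1 (7.68 FPKM in 7 animals), Barx1 and Zfhx4. The region in Sp7, the osteoblast transcription factor, was at 2.61 to 6.42 FPKM in 4 animals of E15.5 and E16.5 and was the only member in the bone list. Imprinted genes held 3, in Impact (median 1.31 FPKM), Kcnq1 and Gnas, and Elavl4, a neuronal RNA-binding protein gene, held 2 (median 1.95 FPKM for the higher). Lists of cartilage, endothelium, epithelium, erythroid cells, macrophages and skeletal muscle held 0 members.

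Among genes the study lists for cleft palate, the highest members were in Scarf2, Prrx1 and Ptprs. Scarf2, a scavenger receptor gene mutated in a human syndrome with craniofacial defects, held 3 of them, all in intron 1 of 10. The region at chr16:17800636-17800914 had a median of 17.2 FPKM in 17 animals, and its lowest and highest were 10.6 and 29.5 FPKM, both at E16.5. The region at chr16:17798773-17800478 had a median of 7.17 FPKM in 18 animals, and the third (chr16:17797622-17798556), next to exon 1, 6.63 FPKM in 13. The exons of Scarf2 had a median of 35.8 FPKM. The region at chr16:17798773-17800478 differed by 0.56 ± 0.23 (SE) on the log2 scale between TGFβ3-/- and WT (limma adjusted p = 0.836). A further region in intron 12 of Ptprs, chr17:56568772-56569691, was found in both lanes of all 18 animals, with 2.79 to 5.74 FPKM at E14.5, then 5.12 to 10.5 and 4.41 to 7.18 on the following days, and was not called in any comparison.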

How the data were processed

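Palatal RNA of 18 animals was sequenced in 36 libraries. According to their processing notes, the authors aligned reads to mm9 with TopHat 1.4.1 and assembled each library with Cufflinks 1.3.0, and the deposited tables give the FPKM of each assembled locus with a 95% interval and no gene names. No counts are in the tables. The study lists the reads of each library, and these were not set against the results here, so the part of depth in them was not tested. The half-width of the interval had a median of 40.0% to 51.6% of the FPKM of intronic loci in each library, which covers estimation within a library and not the spread between animals.

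Loci were set against GENCODE vM1 exons. A region's level was the FPKM of its intronic loci weighted by the bases each covers, as the mean of both lanes. Where only 1 lane of an animal had a value, that value was used alone. No value was given where another locus covered at least 50% of the region, and animals without a value were left out of that region's fit. Gene levels were the FPKM of loci weighted by the exonic bases covered, with no value where a locus joined genes. Genes that reached 1 FPKM in 2 or more animals and the members were fitted together on log2(FPKM + 1), a pseudocount of 1, with 9 group means and limma 3.58.1 in R 4.3.3. Contrasts were averaged over genotypes or ages. A call needs a Benjamini-Hochberg adjusted p under 0.05 and a 2-fold change. Changes of low values are understated on this scale. Detection was tested with Fisher's exact test and shares with the exact permutation test in SciPy 1.17.1. Nothing in the labels says that replicates came from separate litters, so p-values cover the spread between these animals. Sequences were searched with BLAST+ 2.17.0. The fit was checked on simulated data.

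Members named in the text are those in Tgfb3, the 4 called in each direction with the largest change and groups that do not overlap, the 10 highest, those in the 5 hosts with most members, the 5 highest in cleft palate genes and the highest of each gene list. Of the 11 sequences this rule selects, 8 are shown. Members and lists were chosen with earlier results of these data known. Alternatives tried were the pseudocount, the filters, the lane, the distance to exons, the treatment of covered regions, scaling, a replicate block and leaving out each animal.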

Additional observations from a re-analysis of the deposited data

Results flagged for a closer look

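By a test for single samples far from the rest, 12 groups of animals were looked at, and chance gives about 1 in 20. E16.5 TGFβ3-/- replicate 1 had an intronic share of 10.8% of loci, and the other 5 animals of E16.5 had 4.42% to 5.67%. The same animal had 567 members detected against 274 to 340 in the other animals of E16.5. E15.5 TGFβ3+/- replicate 2 had an intronic share of 7.04%, and the other 5 TGFβ3+/- animals had 5.08% to 5.67%.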

How the results depend on the processing

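Levels were tested under a pseudocount of 0.1 FPKM, 0 where no intronic locus was found, the lower-numbered lane only, members in at least 4 animals, members at least 200 bases from exons, the adjusted p alone, the highest FPKM of any locus, no filter on low genes and regions alone in the fit. From E14.5 to E15.5, where 9 members were called, these gave in that order 26, 26, 3, 4, 5 and 36 for the first 6 settings. From E15.5 to E16.5, also 9, they gave 22, 21, 3, 5, 3 and 35. From E14.5 to E16.5, where 11 were called, the count was 54 with the pseudocount of 0.1, 51 with 0 in place of missing values, 88 by adjusted p alone, 27 with the highest FPKM, 7 without the filter and 7 with regions alone. Against the host genes, 17 became 54 with 0 in place of missing values and 11 with 1 lane. For TGFβ3-/- against WT and against TGFβ3+/-, 0 became 1 each with 0 in place of missing values, and against hosts 0 became 1 with the pseudocount of 0.1 and 2 with 1 lane. The Ptprs region against its host changed sign with the highest FPKM (-0.10). The share of intronic loci from E14.5 to E16.5 changed sign over loci of any FPKM (-0.258). The cause was not tested in these cases.

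Leaving out each animal in turn, with the lone animal of its group assumed to vary like the other groups, gave 6 to 11, 5 to 10 and 6 to 13 called members for the age comparisons, 0 to 1 for either genotype against WT and 0 for TGFβ3-/- against TGFβ3+/-. From E15.5 to E16.5 the count was 5 without E15.5 TGFβ3-/- replicate 1, E15.5 WT replicate 1 or E16.5 TGFβ3-/- replicate 1, and from E14.5 to E16.5 it was 7 without E14.5 TGFβ3+/- replicate 1 and 6 without E14.5 WT replicate 2. Against hosts it ran from 13 to 18 for the ages and 0 to 2 for TGFβ3-/- against WT, where it was 2 without E15.5 WT replicate 1, E16.5 TGFβ3-/- replicate 1, either E16.5 TGFβ3+/- animal or E16.5 WT replicate 2. Detection gave 0 throughout. Differences in share ran from 0.276 to 1.34, -1.55 to -0.211 and -0.889 to 0.395 points for the ages, from 1.58 to 2.71 for TGFβ3-/- against WT, -0.132 to 0.573 for TGFβ3+/- against WT and 1.29 to 2.42 for TGFβ3-/- against TGFβ3+/-. The small difference from E14.5 to E16.5 was -0.0826 and -0.0362 without E14.5 TGFβ3+/- replicate 1 or 2 and -0.889 without E16.5 TGFβ3-/- replicate 1.

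A replicate block gave 9, 7 and 11 called members for the ages, 0 for each genotype comparison and 17 and 0 against hosts. Same-numbered animals did not deviate together (36 pairs, r from -0.37 to 0.26, 4 over 0.1), so the numbers do not pair the animals. With no counts, a region at 0 cannot be told from one below the assembler's reach.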
